A study of Mus musculus with 6 samples.

Results

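The cAMP module described here holds the enzymes that make cAMP, those that break it down, and the kinase and anchoring proteins that act on it. Its members were the rows of the count table whose gene symbol begins with Adcy, Pde, Prka or Akap in the patterns that name adenylyl cyclases, cyclic nucleotide phosphodiesterases, subunits of protein kinase A (PKA) and A-kinase anchoring proteins (AKAPs). These patterns took 55 of 35976 genes, with no use of measured values. They comprised 10 adenylyl cyclases, 22 genes named as phosphodiesterases, 2 catalytic and 4 regulatory PKA subunits, 16 AKAPs and Pde4dip. The last of these, myomegalin, is a centrosomal and Golgi protein that matched by its name alone and is no phosphodiesterase. Pde6d, counted among the 22, is likewise no enzyme but a chaperone of prenylated proteins that binds Pde6.

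RNA sequencing was performed on the thermogenic fat of mice, brown adipose tissue (BAT), of 3 AKO animals and 3 WT littermates. In AKO mice Cars2, the mitochondrial cysteinyl-tRNA synthetase, is deleted in adipose tissue through a floxed allele and Adiponectin-Cre, which is active in white and brown adipocytes alike. Both groups had been kept at 4 °C for 4 h before the tissue was frozen, so no library shows the module without cold. Age and sex of these mice, the deleted exons and any floxed alleles in the WT littermates are not given in the labels. The study's methods give adult ages over all experiments and male sex for the feeding experiments, without naming these mice, and the study calls its wild-type controls Flox.

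cAMP is the second messenger of the cold response in BAT. Noradrenaline from sympathetic nerves binds beta-adrenergic receptors, the stimulatory G protein activates adenylyl cyclases, and cAMP releases the catalytic subunits of PKA from the regulatory ones. PKA then phosphorylates lipid droplet proteins and lipases and the transcription factor CREB, while phosphodiesterases end the signal and AKAPs hold PKA at membranes, mitochondria or the nucleus.

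Libraries held 6540619 to 8461685 counts. Cars2 (chr8:11514017-11550781, GRCm38.p6) was at 220, 248 and 132 CPM (counts per 1000000 of a library, scaled by TMM factors) in the AKO libraries, against 786, 459 and 632 CPM in the WT libraries. It was lower in AKO BAT by a log2 fold change of -1.64 ± 0.23 (SE, n = 3 each; edgeR quasi-likelihood test, Benjamini-Hochberg adjusted p = 0.000192). BAT also holds cells in which this Cre is not active. The markers of brown adipocytes summed to 5332 to 8860 CPM in AKO libraries and 17690 to 19526 CPM in WT libraries, with 7 of 8 lower. Ucp1 and Ppargc1a are also in the list of cAMP-induced transcripts, and Adrb3 is in that of receptors. Ppargc1a was at 342 to 639 CPM in AKO and 580 to 1019 CPM in WT libraries. Ucp1 gave 3154 to 6435 CPM of the AKO and 14006 to 15622 CPM of the WT sums. The other 7 markers, Ppargc1a and Adrb3 among them, summed to 2179 to 2564 CPM in AKO and 3514 to 4418 CPM in WT libraries. Those of macrophages summed to 889 to 1261 CPM in AKO and 240 to 289 CPM in WT libraries, with 10 of 11 higher, those of skeletal muscle to 1014 to 2085 CPM in AKO and 70.5 to 473 CPM in WT libraries, with 12 of 12 higher, and those of fibroblasts to 1560 to 1985 CPM in AKO and 549 to 868 CPM in WT libraries, with 5 of 7 higher. Schwann cell and nerve markers summed to 77.5 to 106 CPM in AKO and 130 to 178 CPM in WT libraries, with 2 of 5 tested lower. Markers of adipocytes in general summed to 12031 to 15253 CPM in AKO and 19953 to 22018 CPM in WT libraries, with 4 of 8 lower and 1 higher. Endothelial markers overlapped, at 671 to 795 CPM in AKO and 789 to 854 CPM in WT libraries, with 2 of 6 lower and 1 higher. Over all genes tested, 17.5% were lower and 20.2% higher. The part of these markers in the results that follow was not tested, and in bulk tissue fewer cells of a type and less RNA per cell cannot be told apart.

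**Figure D1:**
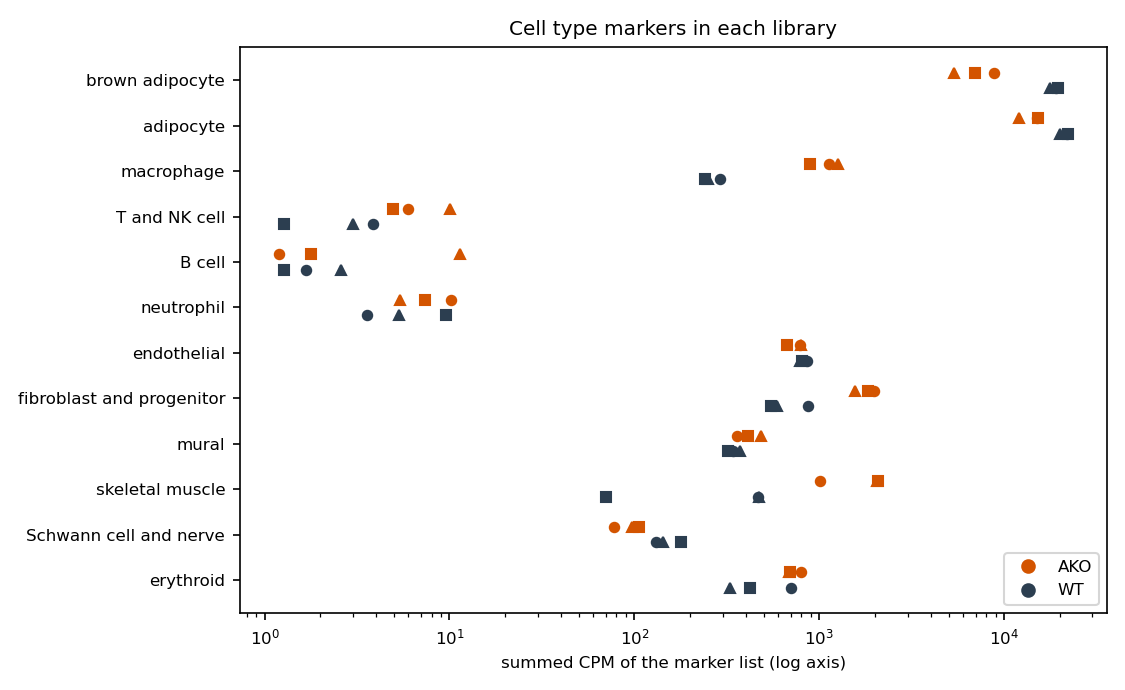
Summed CPM (log axis) of each cell type marker list in each library, with the AKO libraries (orange) above the WT libraries (dark blue) and circles, squares and triangles for replicates 1, 2 and 3. Brown adipocyte markers reached 5332 to 8860 CPM in AKO and 17690 to 19526 CPM in WT libraries, and macrophage markers 889 to 1261 CPM in AKO and 240 to 289 CPM in WT libraries.

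Of the 55 members, 42 passed the filter on low counts and were tested. In AKO BAT, 5 were higher and 14 lower at an adjusted p under 0.05, and 23 did not pass the test. The called share was 45.2% of the tested members, against 37.6% of all 13007 genes tested. Lower members made up 33.3%, against 17.5% of all genes, and higher members 11.9%, against 20.2% of all genes. The median log2 fold change was -0.17 over the tested members and 0.01 over all genes tested. In 27 members the 3 AKO libraries lay wholly on one side of the 3 WT libraries, 18 below and 9 above, which is 64.3% of the tested members against 50.1% of all genes (24.4% below and 25.7% above). Members held 0.307% to 0.365% of all counts in the AKO libraries and 0.444% to 0.457% in the WT libraries.

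The 13 members that did not pass the filter had at most 14 counts in any library. They were the cyclases Adcy1, Adcy2 and Adcy8, the cGMP phosphodiesterases Pde6a, Pde6b, Pde6c and Pde9a, and the anchoring genes Akap2, Akap3, Akap4, Akap5, Akap6 and Akap14. Akap2 shares 59.8% of its exon bases with Pakap on the same strand, and Pakap had 0 counts in every library. Reads that match both may have been lost in counting, so the few counts of Akap2 do not show its level. Akap4, a protein of the sperm tail, had no count in any library, which allows a level of up to 0.359 to 0.426 CPM per library by a limit of 3 counts, covering counting error only.

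**Figure D2:**
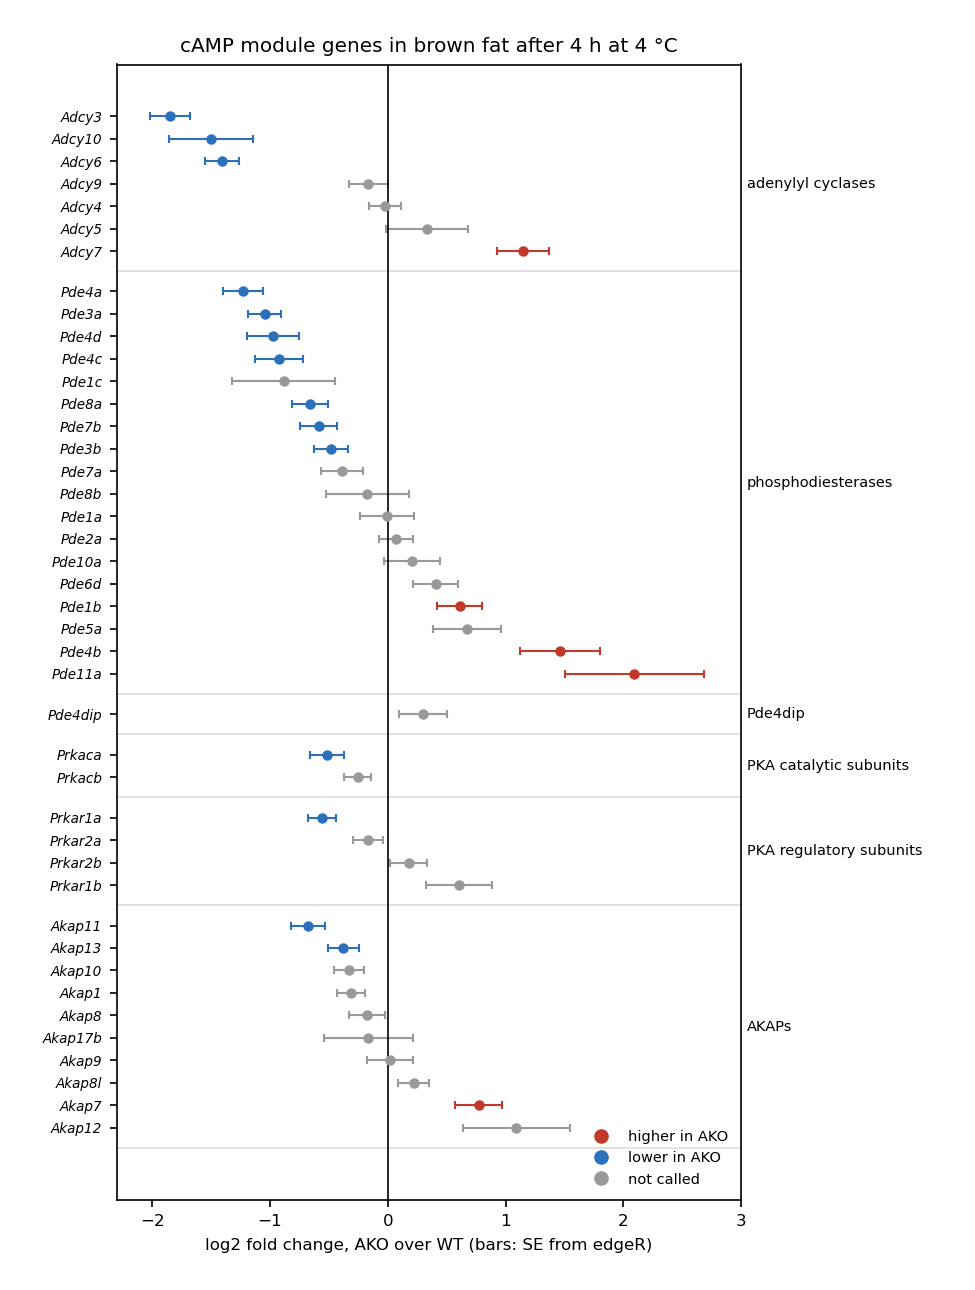
Log2 fold change (AKO over WT) of the 42 tested members by class, with bars for the SE from edgeR and colours for members higher (red), lower (blue) or not called (grey). The points run from -1.85 for Adcy3 to 2.10 for Pde11a, with 14 called lower and 5 called higher.

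Promoters of 3 members are shown, chosen after fold changes and motifs were seen. Adcy3 had the lowest log2 fold change of the tested members, Pde4b rose while its relatives fell, and Prkar1a was the member with a full cAMP response element. A link of motif to direction of change was not tested. The promoters of Adcy3 and Pde4b are the first listed, and that of Prkar1a is the first with the full element before its start. Each is the stretch of 250 bases before a RefSeq start on the plus strand of GRCm38.p6, at chr12:4133147-4133396 for Adcy3, chr4:102421305-102421554 for Pde4b and chr11:109650699-109650948 for Prkar1a. Capitals mark TGACGTCA, the palindromic site that CREB binds, and its shorter form TGACG, which on the other strand reads CGTCA.
Adcy3: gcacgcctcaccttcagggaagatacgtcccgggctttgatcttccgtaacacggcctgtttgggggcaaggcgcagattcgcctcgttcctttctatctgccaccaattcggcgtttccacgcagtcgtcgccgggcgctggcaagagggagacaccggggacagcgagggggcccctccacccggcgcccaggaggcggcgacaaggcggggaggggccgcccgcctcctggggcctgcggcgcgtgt
Pde4b: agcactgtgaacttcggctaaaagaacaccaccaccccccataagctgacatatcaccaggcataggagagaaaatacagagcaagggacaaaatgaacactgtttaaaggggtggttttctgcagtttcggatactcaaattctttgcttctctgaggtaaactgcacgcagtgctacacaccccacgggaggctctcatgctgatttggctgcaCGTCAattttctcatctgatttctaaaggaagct
Prkar1a: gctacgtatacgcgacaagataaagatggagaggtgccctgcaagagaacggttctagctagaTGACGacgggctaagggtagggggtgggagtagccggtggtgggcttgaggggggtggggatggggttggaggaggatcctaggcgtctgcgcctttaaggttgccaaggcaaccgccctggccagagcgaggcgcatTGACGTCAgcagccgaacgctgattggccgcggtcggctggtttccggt
In Prkar1a the full element began 49 bases before the start, with a further TGACG 187 bases before it, and in Pde4b the short form began 34 bases before the start. The shown Adcy3 promoter held neither.

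RefSeq promoters, from 250 bases before to 50 after a start, were found for 45 of the 55 members, 88 promoters in all. Adcy6 and Akap12 were among the members without one. TGACGTCA was present in 2 of the 88 (2.27%), overlapping promoters of Prkar1a that share 1 element, against 1.79% of 32851 promoters of all genes. TGACG, which the longer element contains, was present in 17 of 88 (19.3%), against 20.8% of all promoters, on either strand. The palindromic site of EBF factors occurred in 1 of 88 (1.14%), a promoter of Prkar1b, against 0.904% of all promoters. The direct repeat that PPAR and RXR bind, searched as 1 exact consensus, occurred in 0 of 88, against 0.0396% of all promoters. The member shares were thus close to those of all promoters, and a match of letters is not a bound site.

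Among the adenylyl cyclases, 3 of 7 tested fell in AKO BAT (42.9%, against 17.5% of all genes), 1 rose (14.3%, against 20.2%) and 3 did not pass the test. Adcy3 and Adcy6, the most abundant cyclases per kb of exon in both groups, were among those that fell. Adcy3 is an odorant and adrenergic signalling cyclase for which a truncated isoform induced by cold has been described in mouse BAT, and the table, which counts genes, does not separate isoforms. Adcy3 (chr12:4133116-4213525) was at 367, 237 and 247 CPM in AKO libraries, against 1055, 1069 and 942 CPM in WT libraries. Every AKO library was far below every WT library. The log2 fold change was -1.85 ± 0.17 (SE; edgeR, Benjamini-Hochberg adjusted p = 1.14e-05), or 3.60-fold lower in AKO.

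Of the exon bases of Adcy3, 24.3% are shared with Cenpo, a centromere gene on the other strand. Cenpo, a gene outside the module chosen after its values were seen, was at 157, 115 and 104 CPM in AKO libraries, against 460, 432 and 407 CPM in WT libraries, with a log2 fold change of -1.79 ± 0.16. The 2 log2 fold changes differed by less than either SE. It is not known whether strand was used in counting, and reads of these genes where they overlap then cannot be told apart.

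Adcy6, a cyclase inhibited by calcium, was at 164, 114 and 129 CPM in AKO libraries, against 339, 371 and 370 CPM in WT libraries. The groups did not overlap, and the log2 fold change was -1.41 ± 0.15 (edgeR, Benjamini-Hochberg adjusted p = 2.54e-05). The annotation gives 10% of its exon bases to a predicted gene on the other strand as well. Adcy10, the soluble cyclase that responds to bicarbonate, also fell, at a mean of 2.02 CPM in AKO and 5.84 CPM in WT BAT (log2 fold change -1.50 ± 0.36).

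Adcy7, a cyclase best known from blood and immune cells, rose. It was at 16.9, 11.2 and 19.8 CPM in AKO libraries, against 7.31, 7.00 and 7.24 CPM in WT libraries. All 3 AKO libraries exceeded the WT libraries, which were close to each other, and the log2 fold change was 1.15 ± 0.22 (edgeR, Benjamini-Hochberg adjusted p = 0.00148). Macrophage markers summed to 889 to 1261 CPM in the same AKO libraries and 240 to 289 CPM in the WT libraries, and their part in this difference was not tested. Adcy4, Adcy5 and Adcy9 had log2 fold changes of -0.02, 0.33 and -0.17 and were not called.

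Added up per kb of exon, the 10 cyclases gave 128, 90.1 and 98.0 CPM per kb in AKO libraries, against 292, 301 and 274 CPM per kb in WT libraries. The AKO sum was 2.75-fold lower, with no overlap between groups. Brown adipocyte markers without Ucp1, but with Ppargc1a and Adrb3, were lower in the same libraries (2179 to 2564 CPM in AKO and 3514 to 4418 CPM in WT). Their part in this difference was not tested. Adcy3 and Adcy6 together made up 74.5 ± 3.46% of the sum in AKO and 90.9 ± 0.0966% in WT BAT (SD, n = 3 each). Adcy3 alone made up 53.2% of it in AKO and 70.3% in WT BAT. The limit given for the overlap of Adcy3 with Cenpo therefore holds for the sum and these shares as well. Adcy4 made up 16.7 ± 2.27% in AKO and 6.08 ± 0.436% in WT BAT, at a level of its own that was close between groups (61.0 CPM in AKO and 62.0 CPM in WT).

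**Figure D3:**
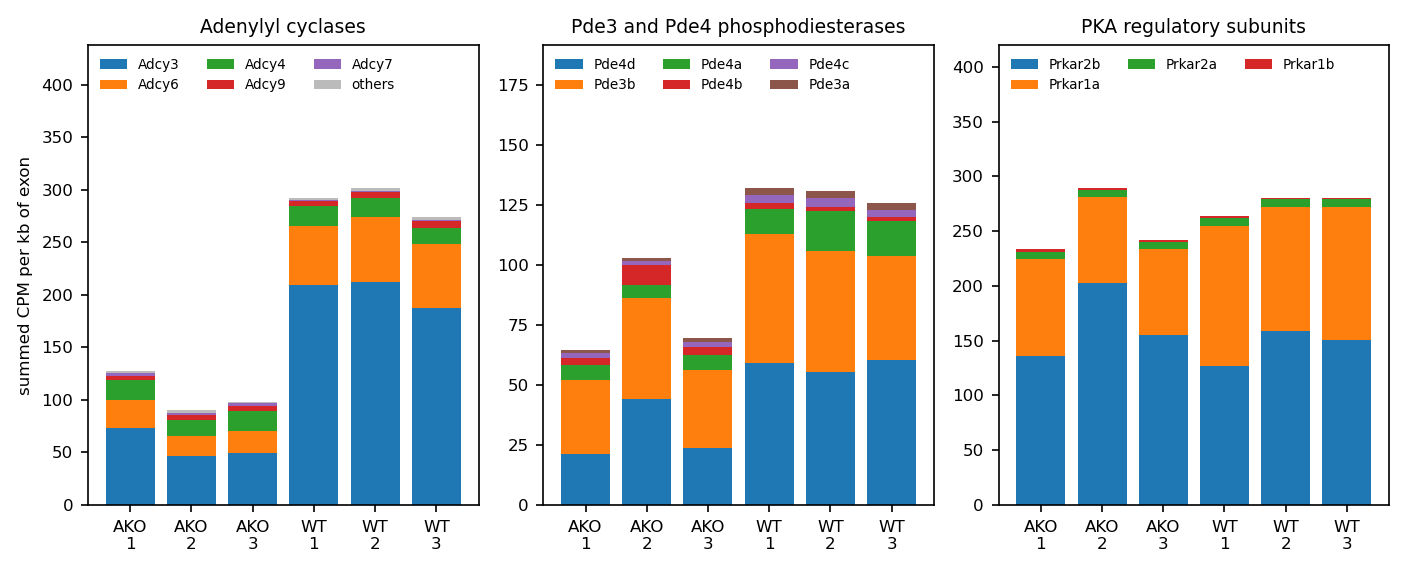
Summed CPM per kb of exon in each library (AKO left of WT), stacked by gene, for adenylyl cyclases, the Pde3 and Pde4 phosphodiesterases and the regulatory subunits of PKA. Cyclases reached 90.1 to 128 CPM per kb in AKO and 274 to 301 in WT libraries, while the regulatory subunits overlapped between groups.

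Phosphodiesterases that split only cAMP (the Pde4, Pde7 and Pde8 families) were called in 6 of 8 tested (75%, against 37.6% of all genes), 5 lower (62.5%, against 17.5%) and 1 higher (12.5%, against 20.2%). Of those that split both cyclic nucleotides (Pde1, Pde2, Pde3, Pde10 and Pde11), 2 of 8 fell (25%, against 17.5%) and 2 rose (25%, against 20.2%). Of those listed with cGMP (Pde5, Pde6 and Pde9), 2 of 6 were tested and 0 were called in edgeR or in any alternative, at unadjusted p of 0.0366 for Pde5a and 0.0548 for Pde6d.

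The Pde4 family, the target of rolipram, moved in both directions. Pde4d, the most abundant phosphodiesterase per kb in WT BAT and over all libraries, was at 140, 293 and 159 CPM in AKO libraries, against 393, 370 and 401 CPM in WT libraries. AKO replicate 2 stood nearer to the WT libraries than the other AKO libraries did, and the groups did not overlap. The log2 fold change was -0.97 ± 0.22 (edgeR, Benjamini-Hochberg adjusted p = 0.00442).

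Pde4a was at 34.3, 30.4 and 34.5 CPM in AKO libraries, against 58.0, 94.0 and 80.6 CPM in WT libraries. The AKO libraries were alike and all lower (log2 fold change -1.23 ± 0.17; edgeR, Benjamini-Hochberg adjusted p = 0.000142). Pde4c was at 6.72, 5.08 and 7.12 CPM in AKO libraries, against 11.5, 13.8 and 10.7 CPM in WT libraries, again without overlap (-0.93 ± 0.20; adjusted p = 0.00371 in edgeR).

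Pde4b, the Pde4 gene that is prominent in inflammatory leukocytes, rose. It was at 23.5, 70.3 and 29.2 CPM in AKO libraries, against 18.3, 11.2 and 15.0 CPM in WT libraries. AKO replicate 2 stood above the others, and the lowest AKO library still exceeded the highest WT library. The log2 fold change was 1.46 ± 0.34 (edgeR, Benjamini-Hochberg adjusted p = 0.00510) and 0.82 without AKO replicate 2, where the call held. Pde4b made up 11.1 ± 2.91% of the Pde4 sum per kb in AKO and 2.36 ± 0.615% in WT BAT. Macrophage markers were higher in the AKO libraries by the values given for Adcy7, with the lowest AKO sum in replicate 2, and their part was not tested.

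Pde8a, a cAMP phosphodiesterase of high affinity that common inhibitors spare, was at 41.8, 55.5 and 37.0 CPM in AKO libraries, against 69.0, 74.9 and 68.7 CPM in WT libraries. The groups were apart (log2 fold change -0.66 ± 0.15; edgeR, Benjamini-Hochberg adjusted p = 0.00433). Pde7b was at 26.3, 34.0 and 31.5 CPM in AKO libraries, against 47.0, 53.9 and 36.9 CPM in WT libraries. WT replicate 3 was close to the AKO libraries (-0.59 ± 0.16; edgeR adjusted p = 0.0120), and without WT replicate 2 the call was lost at a log2 fold change of -0.47. Pde7a and Pde8b had log2 fold changes of -0.39 and -0.17 and were not called.

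Pde3b, through which insulin lowers cAMP in adipocytes, was at 205, 277 and 213 CPM in AKO libraries, against 355, 331 and 286 CPM in WT libraries. The highest AKO and the lowest WT library were close (log2 fold change -0.48 ± 0.15; edgeR, Benjamini-Hochberg adjusted p = 0.0201). The call was lost without AKO replicate 1 (-0.40), AKO replicate 3 (-0.42), WT replicate 1 (-0.41) or WT replicate 2 (-0.48).

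Pde3a, the relative known from heart, platelets and oocytes, was at 15.5, 18.5 and 16.9 CPM in AKO libraries, against 37.8, 33.6 and 33.7 CPM in WT libraries. It was 2.06-fold lower in AKO with little spread in either group (-1.05 ± 0.14; edgeR, Benjamini-Hochberg adjusted p = 0.000122). Pde3a was the smaller of this pair in abundance, since Pde3b made up 96.2% of the Pde3 sum per kb in AKO and 94.5% in WT BAT.

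Pde1b, which calcium and calmodulin activate, was at 9.60, 9.02 and 10.2 CPM in AKO libraries, against 6.00, 6.62 and 6.28 CPM in WT libraries. The groups did not overlap (log2 fold change 0.61 ± 0.19; edgeR, Benjamini-Hochberg adjusted p = 0.0222), and the call was lost in DESeq2, with no low-count filter, and without AKO replicate 3 (0.57), WT replicate 1 (0.57), WT replicate 2 (0.64) or WT replicate 3 (0.60). Pde11a rose on few counts, 12, 14 and 9 in AKO libraries against 5, 0 and 3 in WT libraries (log2 fold change 2.10 ± 0.59; adjusted p = 0.0138 in edgeR). Pde1a, Pde1c, Pde2a and Pde10a had log2 fold changes of -0.01, -0.88, 0.07 and 0.20 and were not called, and 87.9% of the exon bases of Pde2a are shared with another gene model. Pde5a, the target of sildenafil, and Pde6d, the chaperone, had 0.67 and 0.41, each with all AKO libraries above WT.

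The Pde4 sum was 42.5 ± 14.9 CPM per kb in AKO and 77.5 ± 2.28 CPM per kb in WT BAT, the Pde3 sum 36.6 ± 6.08 in AKO and 52.1 ± 5.49 in WT, and that of all phosphodiesterases 135 ± 22.7 in AKO and 192 ± 4.77 in WT (SD, n = 3 each), or 126 ± 22.5 in AKO and 185 ± 4.88 in WT without Pde6d. In each sum the AKO libraries lay below the WT libraries. The ratio of the cyclase sum to the sum of Pde3 and Pde4 was 1.98, 0.873 and 1.41 in AKO libraries, against 2.21, 2.30 and 2.17 in WT libraries. It was lower in every AKO library, with the widest spread in that group. The limit given for the overlap of Adcy3 with Cenpo holds for this ratio as well.

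**Figure D4:**
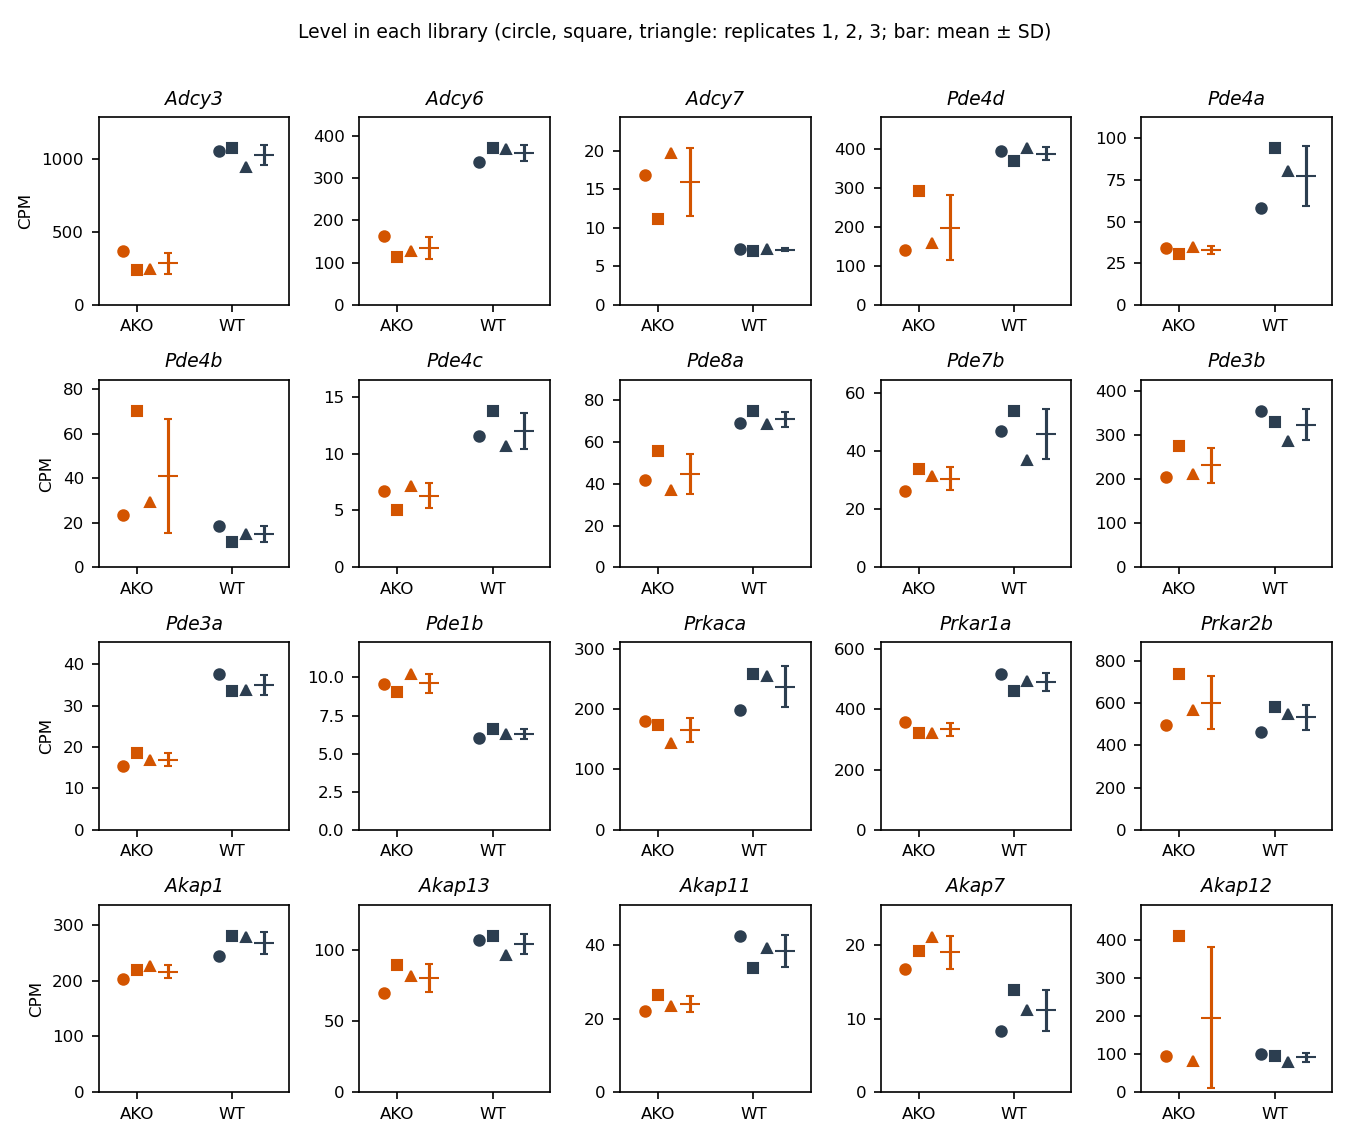
CPM of 20 members in each library, with AKO (orange) left of WT (dark blue), circles, squares and triangles for replicates 1, 2 and 3 and a bar for the mean ± SD. Adcy3 was at 237 to 367 CPM in AKO and 942 to 1069 CPM in WT libraries, while Akap12 was at 411 CPM in AKO replicate 2 alone.

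Of the catalytic subunits of PKA, which phosphorylate its targets, 1 of 2 fell (50%, against 17.5% of all genes). Prkaca, the more abundant of them per kb, was at 180, 173 and 143 CPM in AKO libraries, against 199, 259 and 254 CPM in WT libraries. The highest AKO and the lowest WT library were close (log2 fold change -0.52 ± 0.14; edgeR, Benjamini-Hochberg adjusted p = 0.0126). The call was lost without AKO replicate 3 (-0.42), WT replicate 2 (-0.46) or WT replicate 3 (-0.48). Prkacb had a log2 fold change of -0.26 and was not called, with 58.5 to 64.3 CPM in AKO and 69.5 to 78.4 CPM in WT libraries.

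Of the regulatory subunits, which bind cAMP and restrain the catalytic ones, 1 of 4 fell (25%, against 17.5% of all genes). Prkar1a, which forms type I PKA, was at 358, 321 and 320 CPM in AKO libraries, against 518, 461 and 493 CPM in WT libraries. The groups were well apart (log2 fold change -0.56 ± 0.12; edgeR, Benjamini-Hochberg adjusted p = 0.00336).

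Prkar2b, the type II subunit that prevails in adipose tissue, was the most abundant regulatory subunit per kb in AKO and WT BAT. It was at 497, 739 and 567 CPM in AKO libraries, against 465, 581 and 550 CPM in WT libraries. The groups overlapped, and it was not called (log2 fold change 0.18 ± 0.16; edgeR, Benjamini-Hochberg adjusted p = 0.408). Prkar1b and Prkar2a had log2 fold changes of 0.60 and -0.17 and were not called. The ratio of Prkar2b to Prkar1a per kb was 1.55, 2.57 and 1.97 in AKO libraries, against 1.00, 1.41 and 1.24 in WT libraries, higher in every AKO library. The summed regulatory subunits overlapped between groups, at 233 to 289 CPM per kb in AKO and 264 to 280 CPM per kb in WT libraries.

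Of the AKAPs, 10 were tested, 2 fell, 1 rose and 7 were not called. The called share was 30%, below the 37.6% of all genes. AKAPs that fell made up 20%, against 17.5%, and those that rose 10%, against 20.2%. In 6 AKAPs the groups did not overlap (60%, against 50.1% of all genes), 4 with AKO below and 2 with AKO above. Akap1, which anchors PKA at the outer mitochondrial membrane, was the most abundant per kb on average. It was at 203, 219 and 225 CPM in AKO libraries, against 245, 279 and 279 CPM in WT libraries. All AKO libraries were below all WT libraries, and the difference missed the threshold (log2 fold change -0.31 ± 0.12; edgeR, Benjamini-Hochberg adjusted p = 0.0581), which it passed in DESeq2.

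Akap11, which binds the type I regulatory subunit and GSK3, was at 22.1, 26.4 and 23.5 CPM in AKO libraries, against 42.3, 33.7 and 39.1 CPM in WT libraries. It was lower in every AKO library (log2 fold change -0.68 ± 0.14; edgeR, Benjamini-Hochberg adjusted p = 0.00253). Akap13, a large anchoring protein, was at 69.9, 89.9 and 82.0 CPM in AKO libraries, against 107, 110 and 96.7 CPM in WT libraries. The groups lay close to each other without overlap (-0.38 ± 0.13; edgeR adjusted p = 0.0358), and the call was lost in 8 alternatives, among them upper-quartile factors, library totals alone and each set that left out AKO replicate 1 (-0.28), AKO replicate 3 (-0.38) or WT replicate 1 (-0.36), 2 (-0.35) or 3 (-0.44).

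Akap7, an AKAP of the plasma membrane and the sarcoplasmic reticulum, rose. It was at 16.7, 19.2 and 21.1 CPM in AKO libraries, against 8.27, 13.9 and 11.2 CPM in WT libraries. The groups did not overlap (log2 fold change 0.77 ± 0.20; edgeR, Benjamini-Hochberg adjusted p = 0.00885). Skeletal muscle markers summed to 1014, 2085 and 2055 CPM in these AKO libraries, against 468, 70.5 and 473 CPM in the WT libraries, and their part in this difference was not tested.

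Akap12 (gravin), a scaffold of PKA and protein kinase C, is described because of a single library and was chosen after its values were seen. It was at 96.2, 411 and 82.3 CPM in AKO libraries, against 102, 95.6 and 79.2 CPM in WT libraries. AKO replicate 2 stood alone, and the other AKO libraries lay within the WT range. The log2 fold change was 1.09 ± 0.45 (edgeR, Benjamini-Hochberg adjusted p = 0.0758) and -0.05 without AKO replicate 2, and it was called without AKO replicate 1 (1.42), without AKO replicate 3 (1.46) and with no low-count filter. Akap12 made up 38.4% of the AKAP sum per kb in AKO replicate 2 and 9.05% to 13.6% in the other 5 libraries.

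Akap10, Akap8, Akap8l, Akap9 and Akap17b had log2 fold changes of -0.33, -0.18, 0.22, 0.02 and -0.17 and were not called. Among these, Akap10 had all AKO libraries below the WT libraries and Akap8l all above. The AKAP sum overlapped between groups, at 112 to 169 CPM per kb in AKO and 129 to 138 CPM per kb in WT libraries.

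Genes around the module were described in 7 lists, of which 83 of 88 symbols were in the table and 74 were tested. In AKO BAT 13 rose (17.6%, against 20.2% of all genes tested), 23 fell (31.1%, against 17.5% of all genes) and 38 were not called. Of these 36 calls, 13 were lost in at least 1 alternative. Among receptors, G proteins and arrestins 4 of 15 rose (26.7%, against 20.2%) and 5 fell (33.3%, against 17.5%), at a median log2 fold change of -0.09. Gnas, which encodes the stimulatory G protein alpha subunit, was at 2295, 2262 and 2054 CPM in AKO libraries, against 3227, 4092 and 3543 CPM in WT libraries, with a log2 fold change of -0.72 ± 0.14. The groups did not overlap. The receptor Adrb1 (-0.95) and an inhibitory subunit, Gnai1 (-0.89), fell as well, while Arrb2, an arrestin that desensitises receptors, rose (1.04). Another inhibitory subunit, Gnai2, chosen after its values were seen, rose from a mean of 128 CPM in WT to 182 CPM in AKO BAT. Its log2 fold change was 0.51 (edgeR, Benjamini-Hochberg adjusted p = 0.0108), and the call was lost without WT replicate 2 or 3. Gnai3 was not called. The adipocyte receptor Adrb3, which the brown adipocyte list also holds, was at -1.18 ± 0.24 and was chosen after its values were seen. Of their exon bases, Gnas shares 23.7% and Adrb3 18.8% with genes on the other strand.

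Of the other cAMP effectors and PKA inhibitors 2 of 7 rose (28.6%, against 20.2% of all genes) and 1 fell (14.3%, against 17.5%). Abcc4, which exports cyclic nucleotides, rose by 1.59, Pkia, a PKA inhibitor abundant in muscle, by 2.53, and Rapgef3, the cAMP-activated exchange factor Epac1, fell by 0.34 on the log2 scale. The call of Rapgef3 was lost in 10 of 14 alternatives, DESeq2 among them, with the highest adjusted p at 0.162 in edgeR with library totals alone. Among the listed proteins of lipolysis, 4 of 8 fell (50%, against 17.5% of all genes) and 4 were not called, at a median of -0.43. Abhd5, the coactivator of the first lipase, changed by -1.27, Plin5 by -0.93, Mgll by -0.74 and Fabp4 by -0.49. Abhd5 shares 30.1% of its exon bases with a gene on the other strand. The call of Fabp4 was lost in 7 of 14 alternatives, with a log2 fold change of -0.30 without AKO replicate 3.

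Of 10 CREB factors and coactivators 1 rose (10%, against 20.2% of all genes) and 2 fell (20%, against 17.5%). Creb3l1, a membrane-bound factor of the secretory pathway, changed by 1.52, Atf2 by -0.57 and Crem by -0.48. The call of Crem was lost in 9 of 14 alternatives, with a log2 fold change of -0.33 without AKO replicate 3. Of 13 transcripts that cAMP induces, 7 fell (53.8%, against 17.5% of all genes) and 4 rose (30.8%, against 20.2%), at a median of -0.58. The immediate early genes Junb and Fos rose by log2 fold changes of 1.55 and 3.20, while Dio2 (-1.43), the deiodinase that activates thyroid hormone, and Ucp1 (-1.68), the uncoupling protein, fell. Nr4a1, Nr4a2 and Nr4a3, nuclear receptors that are early genes as well, fell by 0.70, 0.62 and 0.58 on the log2 scale and were chosen after their values were seen. The groups overlapped for Nr4a1, at 163 to 274 CPM in AKO and 264 to 497 CPM in WT libraries, and its call was lost in 7 alternatives, with a log2 fold change of -0.35 without WT replicate 3. In the rest of this list, Fosb (2.81) and Sik1 (0.41) rose, and Ppargc1a (-0.74) and Irs2 (-0.67) fell. Dusp1 (0.30) and Per1 (0.11) were not called. Calls were lost in 2 alternatives for Fosb, leaving out AKO replicate 2 among them, in 3 for Sik1 and in 4 for Ppargc1a.

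Of anchoring proteins without an Akap name 2 of 13 rose (15.4%, against 20.2% of all genes) and 3 fell (23.1%, against 17.5%). Arfgef2, an exchange factor of the Golgi, changed by -0.81, Opa1, a mitochondrial fusion protein, by -0.42, Rab32 by 1.06 and Ezr by 0.65. Calls were lost in 7 of 14 alternatives for Opa1 (-0.30 without AKO replicate 1), in 2 for Ezr (without WT replicate 2 or 3) and in 9 for Myrip, the other gene that fell. In the cGMP list 1 of 8 fell (12.5%, against 17.5% of all genes) and 7 were not called. Npr1, a natriuretic peptide receptor, changed by -0.84 and Npr3, its clearance relative, was at -0.49 and not called, with a log2 fold change of 0.11 without WT replicate 1 and a call gained without WT replicate 2 (-0.86).

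**Figure D5:**
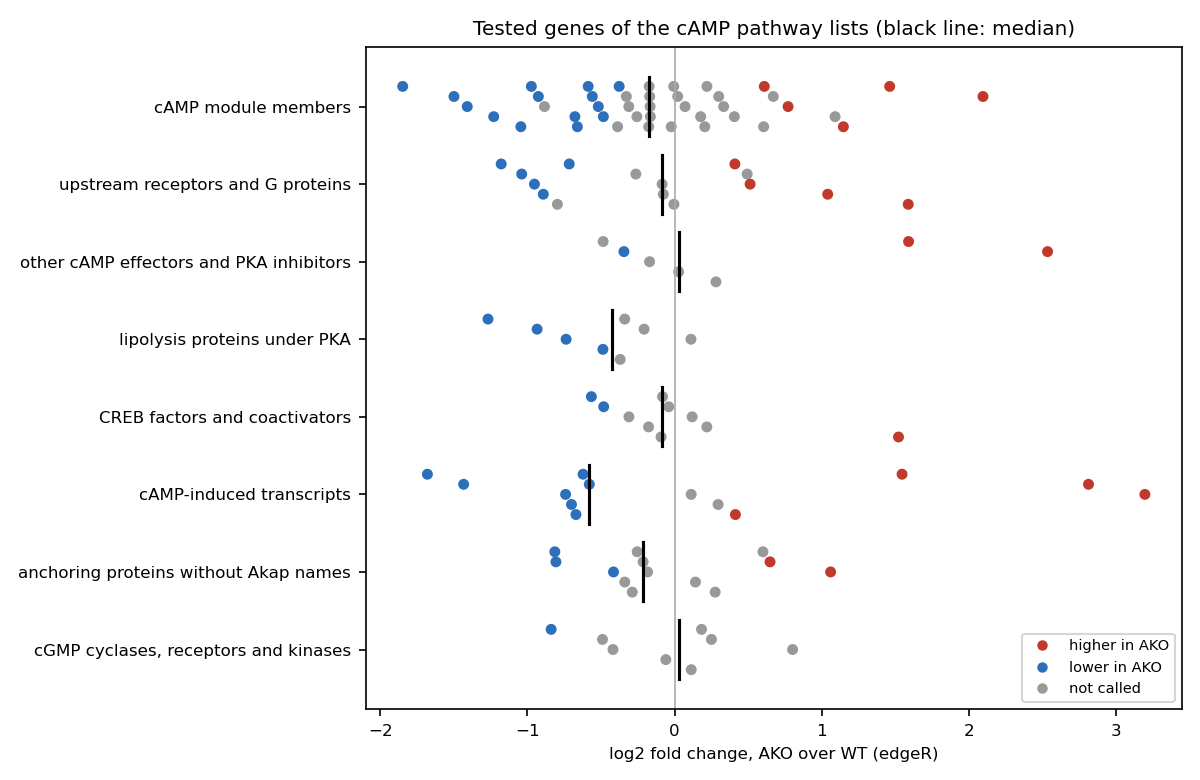
Log2 fold change (AKO over WT, edgeR) of each tested gene of the module and of the 7 lists around it, with a black line at each median and colours for genes higher (red), lower (blue) or not called (grey). Medians lie at -0.17 for the module, -0.58 for cAMP-induced transcripts and -0.43 for lipolysis proteins.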

How the data were processed

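Poly(A)-selected RNA from BAT of 3 AKO and 3 WT mice was sequenced. The authors deposited whole-number counts per gene for each library, without normalization. The methods name STAR, HTSeq and DESeq2, while the submitters' processing notes list mm10, Bowtie2, RSEM 1.3.1 and DESeq2 1.4.5. Not given in the sources used were the use of strand, the handling of reads that match several genes and the gene annotation. Reads of overlapping genes may therefore go to either or be lost.

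Counts were tested with edgeR 4.0.16 in R 4.3.3 (filterByExpr by group, TMM factors of 0.930 to 1.08, quasi-likelihood test with genotype as the only term) and Benjamini-Hochberg adjustment over 13007 genes, with calls at adjusted p under 0.05. The SE is the size of the log2 fold change divided by the square root of F. The common biological coefficient of variation was 0.144. Replicate libraries differed by more than counting noise (chi-square per degree of freedom 5.17 to 17.6) and were treated as separate samples. The labels do not state that each came from a separate mouse, and p-values measure the spread between these samples. Levels are CPM, divided by exon length (GENCODE M21 basic) where genes are compared. Positions and promoters are from RefSeq GRCm38.p6, the mm10 assembly, without conversion.

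Members and lists were chosen with earlier results of these data known. Per-library values are given for called members that averaged 5 CPM or more and for the most abundant member of each class. Up to 4 called genes of lowest p are named from each list, or the 2 of highest mean CPM. In 27 rows, with 0.134% of counts, symbols had become dates, and these were tested but not named. Alternatives were RLE or upper-quartile factors, library totals alone, DESeq2 1.42.0, limma-voom (limma 3.58.1), no filter, a mean of 5 CPM or more, leaving out each library, and the replicate number as a block. The procedure was tested on simulated counts, where 10.9% of calls were false, above the nominal threshold. Far fewer genes were changed in the simulation than were called in the data, so that share does not carry over to these calls. Single calls near the threshold may be less certain than their adjusted p states.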

Additional observations from a re-analysis of the deposited data

How the results depend on the processing

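Over 14 alternatives, 4 to 7 members were called higher (5 as reported) and 10 to 15 lower (14 as reported). Leaving out each library in turn gave 4 to 7 higher and 10 to 14 lower. Other pathway genes gave 9 to 16 higher (13 as reported) and 16 to 26 lower (23 as reported), and Cars2 -1.83 to -1.41. Of the 19 called members, 14 kept the call in all alternatives, 5 lost it in at least 1 (Akap13, Pde1b, Pde3b, Pde7b and Prkaca), and 5 of the 23 not called gained one (Adcy5, Akap1, Akap12, Pde4dip and Prkar1b). No called member changed direction in any alternative. Over all genes, 53.6% of calls were higher in AKO, and 65.2% with library totals alone, where the median of all genes shifted by 0.09.

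Same-numbered AKO and WT libraries deviated together with correlations of -0.02, 0.01 and 0.18, so the numbers were not taken as pairs. With the replicate block, 5 members were higher and 14 lower, 14 other pathway genes higher and 22 lower, and Cars2 was at -1.66. A group of 3 libraries limits the precision of each value, and members below about 5 CPM rest on few counts.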

Other observations

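AKO replicate 2 stood apart from the other AKO libraries in some genes of cAMP signalling, which were chosen after their values were seen. Rgs2, a regulator of G protein signalling, was at 41.6, 176 and 54.2 CPM in AKO libraries, against 87.8, 113 and 126 CPM in WT libraries, with a log2 fold change of -0.26 that was -1.19 without AKO replicate 2. Akap12, Pde4b and Pde4d had their highest AKO value in the same library. Over all tested genes, AKO replicate 2 lay outside the range of the other 5 libraries in 36.5%, within the 26.0% to 37.8% of the other libraries.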
